A study of Homo sapiens with 6 samples.

Results

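The genes described here are the keratins and the other intermediate filament genes of the human genome, as chosen by symbol: every protein-coding gene of GENCODE release 29 named KRT with a number, and INA, NES, VIM, DES, GFAP, PRPH, NEFL, NEFM, NEFH, SYNM, LMNA, LMNB1, LMNB2 and BFSP1. They number 69 among the 60554 gene identifiers of each count file, 55 of them keratins. The rule uses no measured value, but the genes were chosen with earlier results of these data known. Transcripts were counted by RNA sequencing of total RNA from Daoy cells, an established line from a human cerebellar medulloblastoma. The WT group is 3 libraries of cells given a lentivirus with wild-type ZBTB7B, and the ZFmut group is 3 libraries of cells given a lentivirus with ZBTB7B in which R363L alters the zinc-finger domain. In both groups the virus was left on for 72 hr at an MOI (infectious particles per cell) of 15, within 4 days of culture in 10% serum, so each group overexpresses ZBTB7B, a zinc-finger transcription factor, and no library without the transgene was among the samples. The comparison asks which transcripts depend on the intact zinc-finger domain. All directions are for WT against ZFmut.

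Intermediate filaments are rope-like polymers of coiled-coil proteins that give cells and nuclei their mechanical strength. Keratins assemble only as pairs of an acidic type I and a basic type II chain, and each epithelium is known by the pair it makes. Vimentin, desmin, GFAP and peripherin form the type III group, the neurofilament subunits, alpha-internexin, nestin and synemin are the type IV group of neurons and precursor cells, and the lamins line the inside of the nuclear envelope.

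With wild-type ZBTB7B the keratins that passed the test were lower, and alpha-internexin was much higher. KRT8, the main simple-epithelial type II keratin, averaged 263 ± 19.0 CPM (read counts scaled by normalised library size, mean ± SD, n = 3) in WT and 461 ± 50.5 CPM in ZFmut. LMNA, the gene of lamins A and C, averaged 466 ± 18.9 and 718 ± 71.2 CPM. INA, the gene of alpha-internexin, averaged 7.67 ± 0.25 and 0.531 ± 0.175 CPM. VIM, the most familiar filament gene of mesenchymal cells and gliomas, had nearly equal means in the groups. Of the 69 genes, 24 passed the filter on low counts and were tested, and 45 did not. Of the tested genes, 13 were lower and 2 higher with WT by the quasi-likelihood test of edgeR, with p adjusted after Benjamini and Hochberg over all tested genes and a threshold of 0.05, and 9 did not pass. Among all 18683 genes tested, 35.6% passed, 17.2% lower and 18.4% higher, and among the 14658 protein-coding ones 40.8% passed, 19.7% lower and 21.1% higher, so the share of lower genes among the tested filament genes was above the background and the share of higher genes below it. Of 11 tested keratins 8 were lower and 0 higher, and at an unadjusted p under 0.05, which 21.5% of all tested genes passed as lower and 22.9% as higher, the counts were 10 and 0; DESeq2 and limma-voom each also called 8 lower and 0 higher. Of the 13 other tested genes 5 were lower and 2 higher. The filter's level of 0.334 CPM was reached in all 6 libraries by 21 of the 24 genes, in 3 WT and 2 ZFmut libraries by INA, in 2 WT and 3 ZFmut libraries by KRT17, and in 0 WT and 3 ZFmut libraries by DES, which passed only through the group where it was high. The median log2 difference of the 24 was -0.34, beside 0.004 over all tested genes. The groups did not overlap for 18 of the 24, against 47.2% of all tested genes (24.4% with WT above and 22.8% with WT below). INA was at least 2-fold higher and KRT17 and DES at least 2-fold lower, a size that 4.2% of all tested genes reached with a call.

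**Figure D1:**
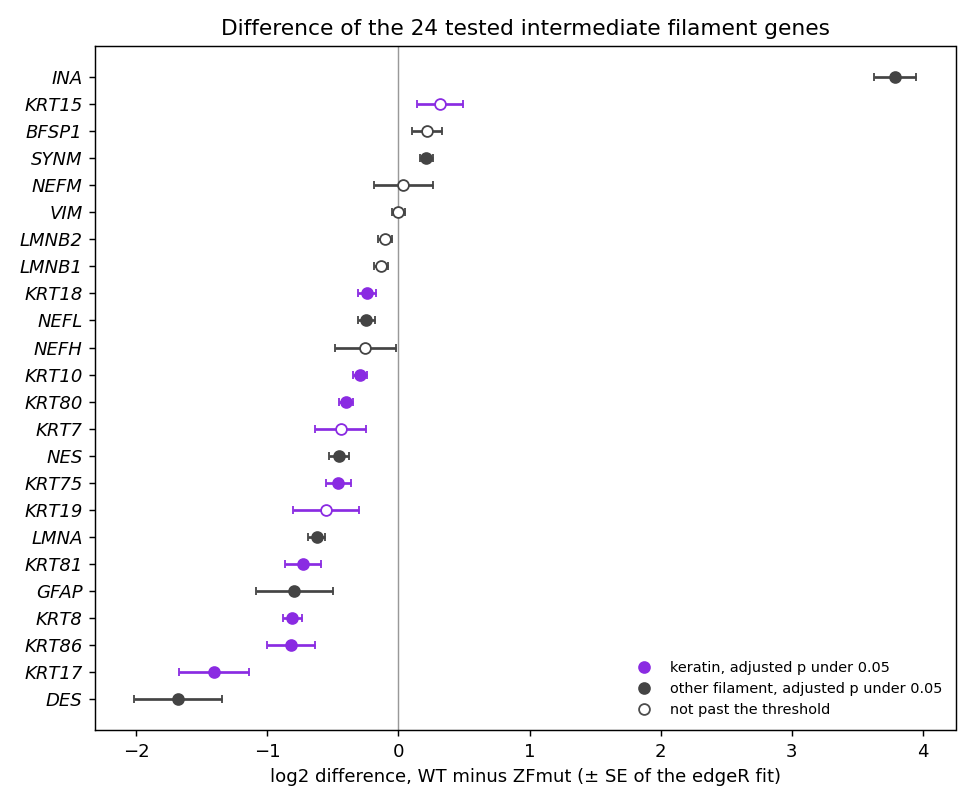
Log2 difference (WT minus ZFmut, horizontal axis) of the 24 filament genes that passed the low-count filter, with the standard error of the edgeR fit as bars and open points for genes that did not pass. INA stands apart on the higher side at 3.79, and the called keratins all lie left of 0, from -0.24 for KRT18 to -1.41 for KRT17.

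The libraries held 22236214 to 102730428 gene counts, a 4.62-fold range. ZBTB7B itself averaged 904 ± 44.3 CPM in WT and 576 ± 43.8 CPM in ZFmut, a log2 change of 0.65 ± 0.06 (SE, edgeR adjusted p = 1.39e-06), so the groups differ in the level of ZBTB7B transcript as well as in the substitution, and these cannot be told apart. ZFmut replicate 2 was the highest of the 6 libraries for 11 of the 24 tested filament genes, and WT replicate 1 was the lowest for 11. Whether replicates are separate cultures is not in the labels, and the p-values therefore describe the spread among these libraries, which may be technical only. In bulk RNA, fewer cells of a type and less RNA per cell cannot be told apart. Of the markers of granule neuron progenitors, the cells from which this kind of tumour is thought to arise, 8 of 12 were tested, of which GLI1 and PTCH1, targets of hedgehog signalling, were higher with WT and the others did not pass. The summed level of the 12 was 166 to 184 CPM in WT and 167 to 182 CPM in ZFmut. ATOH1, which defines those progenitors, had 8 reads over all libraries and MYCN had 11.

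Sequences around transcript starts are shown for the called genes whose RefSeq window (GRCh38.p14, 300 bases, most of them before the start) lies within 100 bases of the start of the gene's principal GENCODE transcript, which for SYNM is not the outermost start: the 2 genes that were higher with WT, INA and SYNM, and 2 that were lower, KRT10 and NES. They are INA at chr10:103276888-103277187, plus strand, SYNM at chr15:99104830-99105129, plus strand, KRT10 at chr17:40822565-40822864, minus strand, and NES at chr1:156677358-156677657, minus strand. Capitals mark matches, on either strand, to the TATA box TATAAA, the GC box GGGCGG and GACCACC, a core reported to be bound by ZBTB7B.
INA: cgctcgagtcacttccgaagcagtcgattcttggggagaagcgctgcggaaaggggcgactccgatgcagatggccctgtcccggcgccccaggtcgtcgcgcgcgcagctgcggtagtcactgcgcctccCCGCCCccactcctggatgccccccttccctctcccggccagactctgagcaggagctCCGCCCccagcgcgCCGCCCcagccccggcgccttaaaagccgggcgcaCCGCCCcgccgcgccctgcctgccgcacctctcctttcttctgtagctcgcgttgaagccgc
SYNM: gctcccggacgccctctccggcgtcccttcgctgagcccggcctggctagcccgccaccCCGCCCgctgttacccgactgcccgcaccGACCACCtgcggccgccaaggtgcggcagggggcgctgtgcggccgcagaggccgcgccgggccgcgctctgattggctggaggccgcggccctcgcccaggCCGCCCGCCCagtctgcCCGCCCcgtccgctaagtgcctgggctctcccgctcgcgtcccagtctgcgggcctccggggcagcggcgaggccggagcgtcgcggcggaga
KRT10: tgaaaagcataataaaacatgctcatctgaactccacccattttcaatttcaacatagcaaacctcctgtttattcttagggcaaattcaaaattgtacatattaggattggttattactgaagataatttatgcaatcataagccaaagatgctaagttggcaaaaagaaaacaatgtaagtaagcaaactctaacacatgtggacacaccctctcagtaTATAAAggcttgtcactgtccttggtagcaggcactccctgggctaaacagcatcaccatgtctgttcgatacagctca
NES: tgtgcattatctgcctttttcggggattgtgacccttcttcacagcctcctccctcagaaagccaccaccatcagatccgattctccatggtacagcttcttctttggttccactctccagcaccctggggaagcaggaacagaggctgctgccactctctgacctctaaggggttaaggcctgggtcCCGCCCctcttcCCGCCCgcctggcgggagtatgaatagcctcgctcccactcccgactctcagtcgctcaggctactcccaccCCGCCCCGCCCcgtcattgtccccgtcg
The windows differ in composition, with 71.3% G and C for INA, 79% for SYNM and 60.3% for NES, each with 4 GC boxes, and 37.7% for KRT10, which has none and holds a TATA box 29 bases before the start. Of 35116 windows of all genes, 45.0% hold a GC box, 11.5% the TATA box and 2.98% GACCACC. In all, 43 of the 69 genes matched a window, 23 of them with the TATA box, 14 with a GC box and 3 with GACCACC. Among the 11 tested genes with a window, GACCACC occurred in SYNM, 162 bases before the start, and in BFSP1. It occurred in 0 of the 5 lower genes. These counts also take windows farther than 100 bases from the principal start, as those of KRT8, LMNA and KRT75 were, and may miss it. The AP-1 letters TGACTCA, in 4.95% of all windows, occurred in BFSP1 alone of the 11. These are matches of letters and not measured sites.

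Taken per length of all annotated exons, the most abundant filament transcripts were those of the lamins and vimentin. On the scale of CPM per kilobase of exon, LMNB2 stood at 160 in WT and 171 in ZFmut, VIM at 128 and 129, LMNB1 at 79.2 and 86.9, and LMNA at 66.7 and 103. On this scale LMNA ranked below LMNB1 in WT and above it in ZFmut. That order depends on the length taken. All annotated exons come to 6985 bases for LMNA and 3633 for LMNB1, and the longest transcripts to 3190 and 3475. KRT8 at 38.2 and 67.0 and KRT18 at 34.2 and 40.4 were the leading keratins, with NEFL at 43.4 and 51.5 among them. On this scale KRT8 ranked below NEFL in WT and above it in ZFmut. Their exons come to 6881 and 4329 bases, and their longest transcripts to 2862 and 4082, so neither order in WT is settled. KRT10 (26.9 and 32.9), NES (20.9 and 28.6), KRT80 (19.8 and 26.0) and SYNM (15.3 and 13.2) followed, and the remaining tested genes were lower still. INA, by the same scale, stood at 2.38 in WT and 0.164 in ZFmut.

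**Figure D2:**
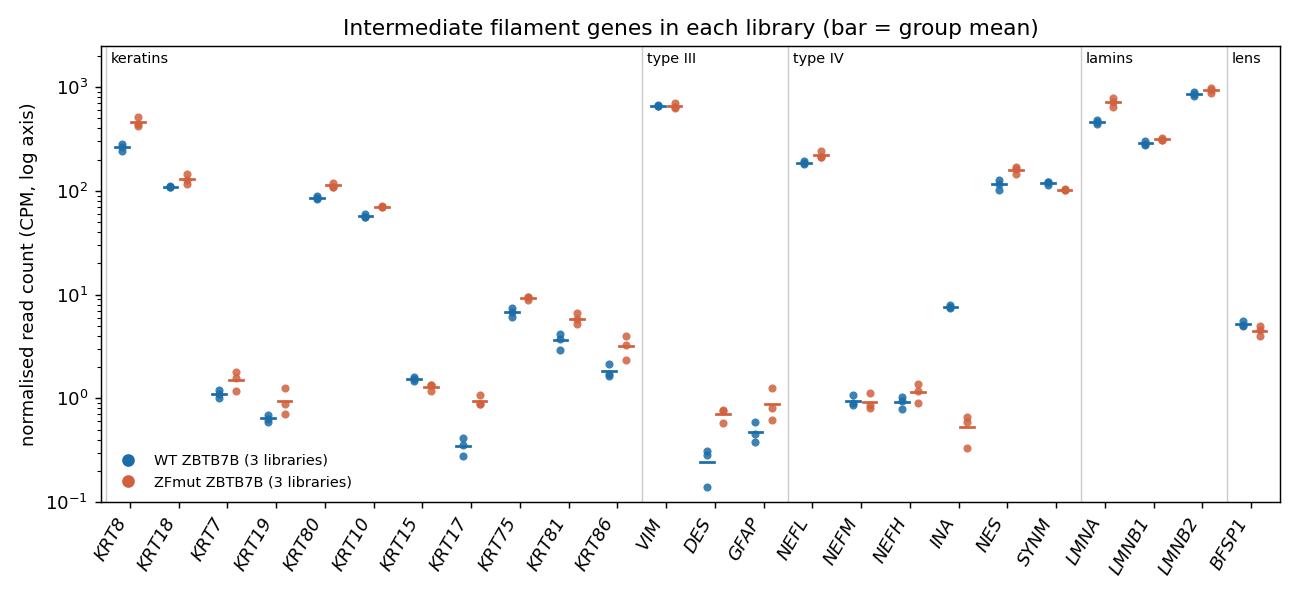
Normalised level of each tested filament gene in each of the 6 libraries (CPM, log axis), with a point per library and a bar for each group's mean. The groups are far apart for INA and apart for KRT8, KRT17, DES and LMNA, and they overlap or nearly overlap for VIM, NEFM, NEFH, LMNB2, BFSP1 and KRT7.

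Among the keratins of simple epithelia, KRT8 carried the largest part of the family's reads. KRT8 (ENSG00000170421.12, GRCh38 chromosome 12, 52897187 to 52949954, minus strand) was at 243, 281 and 265 CPM in replicates 1 to 3 of WT and at 423, 518 and 442 CPM in those of ZFmut. Every ZFmut library lay above every WT library. The log2 difference was -0.81 ± 0.07 (SE, edgeR adjusted p = 1.31e-06), a 1.75-fold lower level with WT. KRT18 (ENSG00000111057.10, chromosome 12, 52948871 to 52952901, plus strand), the type I partner of KRT8 and its neighbour in the genome, was at 109, 112 and 109 CPM in WT and at 117, 146 and 128 CPM in ZFmut. The WT libraries were nearly alike and ZFmut replicate 2 was the highest. Its log2 difference was -0.24 ± 0.07 (SE, edgeR adjusted p = 0.0126), and the call was lost when WT replicate 3 was left out (-0.23, edgeR adjusted p = 0.0553) and when ZFmut replicate 2 was (-0.16, edgeR adjusted p = 0.0502). Corrected for GC content and gene length KRT18 was at -0.16 and KRT8 at -0.74.

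The other simple pair was near the lower end of what was tested. KRT7, a type II keratin of ducts and glands, was at 1.00, 1.21 and 1.11 CPM in WT and at 1.78, 1.17 and 1.58 CPM in ZFmut, and the groups overlapped through ZFmut replicate 2. Its log2 difference of -0.44 ± 0.20 did not pass (edgeR adjusted p = 0.0942), and it passed without ZFmut replicate 2 (-0.55, edgeR adjusted p = 0.0436). KRT19, the smallest type I keratin, was at 0.691, 0.598 and 0.633 CPM in WT and at 0.714, 1.25 and 0.883 CPM in ZFmut, and its difference of -0.56 ± 0.25 did not pass (edgeR adjusted p = 0.103). KRT20 and KRT23, the remaining simple type I genes, did not reach the filter.

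Because keratins polymerise in pairs, the ratio of KRT8 to KRT18 was taken in each library from levels per length. With WT it was 1.04, 1.18 and 1.14, and with ZFmut 1.696, 1.67 and 1.62, in the order of the replicate numbers. The ranges did not overlap, and the means were 1.12 ± 0.0703 and 1.66 ± 0.0398 (SD, n = 3). The exact two-sided permutation p was 0.1, which is the smallest that 3 libraries against 3 can give. The ratios and their difference depend on the exon lengths taken from the annotation, and the fold between the group means, 1.49-fold higher in ZFmut, does not. The ratio of KRT7 to KRT19 was 0.995 ± 0.165 in WT and 0.993 ± 0.448 in ZFmut, with a wide spread in ZFmut.

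Summed over the family, keratin reads came to 510, 556 and 536 CPM in WT and 742, 869 and 787 CPM in ZFmut. KRT8 alone gave 47.6 to 50.5% of keratin reads in the WT libraries and 56.2 to 59.7% in the ZFmut libraries, and KRT8, KRT18 and KRT80 together gave 85.4 to 86.3% and 87.5 to 89.1%. The 26 type II genes summed to 363.4 ± 20.2 CPM in WT and 595 ± 50.1 CPM in ZFmut, and the 29 type I genes to 171 ± 4.01 and 204 ± 14.4 CPM. The lower sum in WT was thus carried mostly by type II chains, and above all by KRT8.

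**Figure D3:**
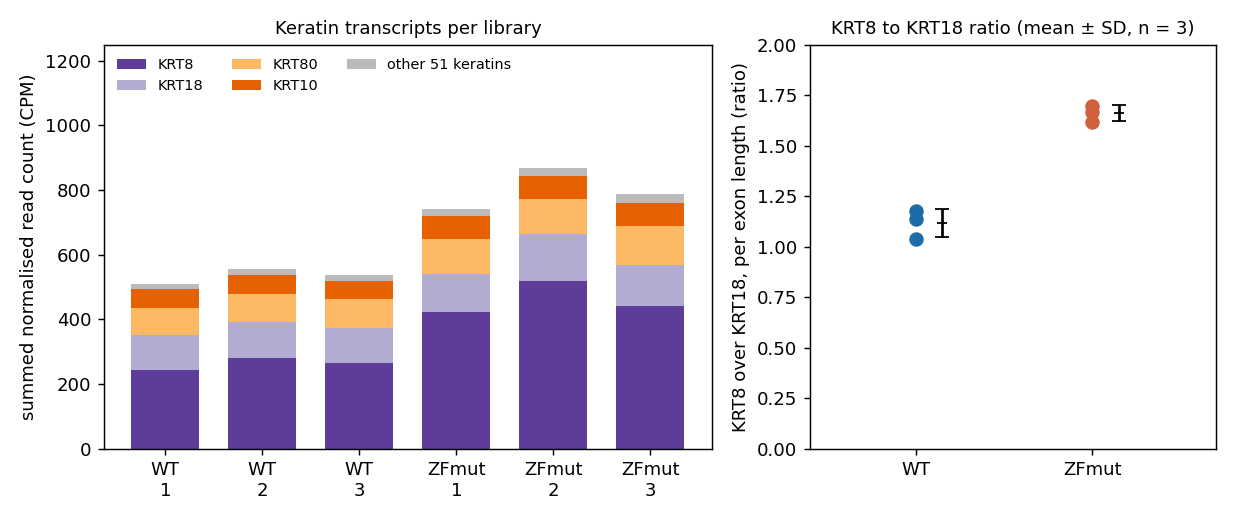
Left, summed keratin level in each library (CPM), stacked for KRT8, KRT18, KRT80, KRT10 and the other 51 keratins; right, the KRT8 to KRT18 ratio per exon length, with a point per library and mean ± SD. The KRT8 share of the bars is 243 to 281 CPM in WT and 423 to 518 CPM in ZFmut, and the ratio is 1.04 to 1.18 in WT and 1.62 to 1.696 in ZFmut.

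KRT8 and KRT18 each have many processed pseudogenes, and reads that fit several places were outside the gene counts. Of the windows of 50 bases along the longest KRT8 transcript, 22.1% occurred in another annotated transcript, and 21.7% of those of KRT18, so both levels may be undercounted. The 50 annotated KRT8 pseudogenes held 4315 reads over the 6 libraries, and 5 were tested, of which 1 was higher with WT and the others did not pass. Their summed level was 16.02 to 16.96 CPM in WT and 15.7 to 16.9 CPM in ZFmut, without the gap seen for KRT8. The 67 KRT18 pseudogenes summed to 1.67 to 2.06 CPM in WT and 1.47 to 2.29 CPM in ZFmut. KRT18 also shares 16.3% of its exonic bases with KRT8, and KRT8 7.6% with KRT18, on opposite strands. The kit does not mark strand, so reads there may not be told apart by gene, which also bears on the ratio of KRT8 to KRT18.

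Of the keratins of stratified epithelia, 4 of 22 were tested and 3 of them were lower. KRT80, a type II keratin found in many epithelia with differentiation, was at 83.8, 85.3 and 88.7 CPM in WT and at 110, 110 and 120 CPM in ZFmut. Its ranges were narrow and well apart, with a log2 change of -0.40 ± 0.05 (SE, edgeR adjusted p = 4.51e-05). KRT10, the type I keratin of the upper epidermis, was at 56.6, 60.5 and 55.6 CPM in WT and at 69.9, 69.5 and 71.8 CPM in ZFmut, a difference of -0.29 ± 0.05 (SE, edgeR adjusted p = 0.000622). KRT1, the usual type II partner of KRT10, was not among the tested genes. KRT17, a type I keratin of hair follicles and wounded epidermis, was at 0.276, 0.352 and 0.411 CPM in WT and at 1.07, 0.876 and 0.893 CPM in ZFmut. It rested on 41 reads in WT and 136 in ZFmut. Its log2 difference was -1.41 ± 0.26 (SE, edgeR adjusted p = 0.000831), a 2.65-fold lower level, and 11.7% of its windows are shared with other transcripts. KRT15, a type I keratin of basal cells, was at 1.55, 1.62 and 1.46 CPM in WT and at 1.34, 1.34 and 1.17 CPM in ZFmut, and its difference of 0.32 ± 0.17 did not pass (edgeR adjusted p = 0.176). Of all tested genes, 1.57% were called and at least 2-fold lower, as KRT17 was.

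The keratins of hair and its sheath include 3 tested genes, all of type II and all lower with WT. The 12 type I hair keratins were not tested and went the other way at trace level. The 8 of them with reads all had a higher mean CPM in WT. From 54 reads in WT and 19 in ZFmut, the 12 summed to 0.411 to 0.518 CPM in WT and 0.0417 to 0.147 CPM in ZFmut. KRT75, a type II keratin of the companion layer of the hair follicle, was at 6.15, 6.83 and 7.41 CPM in WT and at 8.92, 9.55 and 9.51 CPM in ZFmut, a log2 change of -0.46 ± 0.09 (SE, edgeR adjusted p = 0.0016). KRT81, a type II keratin of the hair cortex, was at 4.21, 3.75 and 2.94 CPM in WT and at 5.18, 5.88 and 6.62 CPM in ZFmut, a difference of -0.73 ± 0.14 (SE, edgeR adjusted p = 0.000883). KRT86, its close paralog, was at 1.66, 1.72 and 2.15 CPM in WT and at 2.36, 4.01 and 3.27 CPM in ZFmut, a difference of -0.82 ± 0.18 (SE, edgeR adjusted p = 0.00278). All 3 genes had every ZFmut library above every WT library. KRT81 and KRT86 shared 44.6 and 40.5% of their windows with other transcripts, mostly with each other, so the division of reads between them is uncertain. With all libraries thinned to the smallest total, KRT86 did not pass (-0.54, edgeR adjusted p = 0.0968).

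The 45 genes that were not tested were 44 keratins and PRPH, the gene of peripherin. KRT33A, KRT35, KRT37, KRT38, KRT25, KRT26, KRT28, KRT72, KRT74, KRT24 and KRT77 had 0 reads among 266401051 gene counts, which allows a level of up to 0.0113 CPM over the 6 libraries, for counting error only. A further 22 genes had 1 to 9 reads over all libraries, and 12 had at least 10. Of those 12, KRT79 had 32 reads in WT and 42 in ZFmut, KRT6B 37 and 38, and KRT83 9 and 31. KRT78 had 21 and 18, PRPH 16 and 16, and KRT5 14 and 7. These are raw reads from libraries of unequal depth. By mean CPM, WT and ZFmut stood at 0.271 and 0.225 for KRT79, 0.310 and 0.266 for KRT6B, and 0.0781 and 0.203 for KRT83. KRT78 stood at 0.197 and 0.125, PRPH at 0.135 and 0.120, and KRT5 at 0.129 and 0.0558. The other 6 of the 12 were KRT3 (17 reads in WT and 3 in ZFmut), KRT12 (8 and 2) and KRT32 (8 and 2, all 8 in WT replicate 2), with KRT34 (7 and 3), KRT39 (10 and 6) and KRT222 (10 and 4). Each of these 6 had a higher mean CPM in WT. KRT5, the type II keratin that marks basal layers, was thus present only in traces, and no direction was tested for genes at this depth.

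Markers of epithelia and of keratinocyte differentiation were set beside the keratins. Of 10 epithelial markers 9 were tested, 3 higher and 3 lower, and their summed level was 23.96 to 24.35 CPM in WT and 44.6 to 48.5 CPM in ZFmut. CLDN4, a tight junction claudin, was the largest part of that sum at 12.2 ± 0.913 CPM in WT and 37.5 ± 1.36 CPM in ZFmut (log2 difference -1.63 ± 0.07, SE, edgeR adjusted p = 8.88e-10). CDH1, the gene of E-cadherin, went the other way at 2.91 ± 0.412 and 0.471 ± 0.0428 CPM (2.69 ± 0.20, SE, edgeR adjusted p = 1.67e-07). Of 11 keratinocyte differentiation markers, 4 were tested and 1 was higher. IVL, LOR, SPRR1A, SPRR1B, SPRR2A and CALML5 were at 0 reads in every library, and the list summed to 51.5 to 57.9 CPM in WT and 57.8 to 61.5 CPM in ZFmut, nearly all of it from FLG. The part of the epithelial markers in the keratin differences was not tested.

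Among the type III genes, VIM was the abundant one, and its group means were nearly equal. VIM was at 667, 661 and 659 CPM in WT and at 705, 633 and 650 CPM in ZFmut. The ZFmut range enclosed the WT range, and the log2 difference was -0.00086 ± 0.05 (SE, edgeR adjusted p = 0.992). Of 7 mesenchymal markers, all tested, 4 were lower and 2 higher with WT, against 17.2% and 18.4% of all tested genes. Their summed level was 5877.5 to 6869.3 CPM in WT and 6903.2 to 7537.1 CPM in ZFmut, without overlap, unlike VIM. The part of these markers in the VIM value was not tested.

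DES, the gene of the muscle filament desmin, was a trace transcript that was lower with WT. It was at 0.311, 0.141 and 0.285 CPM in WT and at 0.759, 0.584 and 0.775 CPM in ZFmut, from 26 and 110 reads, and passed the filter through ZFmut. The log2 difference was -1.68 ± 0.33 (SE, edgeR adjusted p = 0.0013), a 3.20-fold lower level. Its nearest tested neighbours on chromosome 2 were lower as well. SPEG, a kinase gene of striated muscle 8107 bases away, averaged 25.2 ± 3.13 and 47.2 ± 5.34 CPM (-0.91 ± 0.09, SE, edgeR adjusted p = 3.86e-06). DNPEP, an aminopeptidase gene 18355 bases away on the other side, averaged 44.7 ± 4.24 and 62.7 ± 2.67 CPM (-0.48 ± 0.07, SE, edgeR adjusted p = 7.4e-05). Muscle markers summed to 66.2 to 71.8 CPM in WT and 54.5 to 57.0 CPM in ZFmut over 6 genes, of which 3 were tested and 2 were higher. MYOG, which defines differentiating muscle, had 4 reads in all, and the part of these markers or neighbours in the DES value was not tested.

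GFAP, the filament of astrocytes, was at 0.449, 0.598 and 0.380 CPM in WT and at 1.25, 0.626 and 0.805 CPM in ZFmut. It shares 18.4% of its exonic bases with genes on the opposite strand. ZFmut replicate 2 lay close to WT replicate 2, and the log2 difference was -0.80 ± 0.29 (SE, edgeR adjusted p = 0.0473). This call did not hold in 8 of 15 alternatives, in which the adjusted p ran from 0.0502 to 0.414. These included leaving out WT replicate 1, WT replicate 3, ZFmut replicate 1 or ZFmut replicate 3. Of 6 tested glial markers 4 were higher and 1 lower with WT, against 18.4% and 17.2% of all tested genes. Their median log2 difference was 0.60, and the list summed to 62.6 to 67.0 CPM in WT and 42.3 to 46.5 CPM in ZFmut. SOX10 had 0 reads and S100B 6, and the part of these markers in the GFAP value was not tested.

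The type IV genes divided. INA (ENSG00000148798.9, chromosome 10, 103277163 to 103290351, plus strand), a neurofilament-like protein of developing neurons, was at 7.60, 7.95 and 7.47 CPM in WT and at 0.669, 0.334 and 0.589 CPM in ZFmut. The lowest WT library stood far above the highest ZFmut library. It rested on 908 reads in WT and 83 in ZFmut and had a log2 change of 3.79 ± 0.16 (SE, edgeR adjusted p = 7.34e-10), 13.8-fold, and of 3.65 to 3.94 over the alternatives. Of all tested genes, 2.63% were called and at least 2-fold higher. Its nearest tested neighbours did not pass. PCGF6, a Polycomb gene 12445 bases away, differed by -0.02 ± 0.07 (edgeR adjusted p = 0.825), and NT5C2, a nucleotidase gene 83857 bases away on the other side, by 0.16 ± 0.06 (edgeR adjusted p = 0.0565).

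Of the neurofilament genes with which alpha-internexin assembles, 1 was lower and the others did not pass. NEFL, the light subunit, was at 182, 196 and 186 CPM in WT and at 211, 245 and 213 CPM in ZFmut, a small difference of -0.24 ± 0.06 (SE, edgeR adjusted p = 0.00725). Its groups did not overlap, and ZFmut replicate 2 was the highest. NEFM, the medium subunit, was at 0.898, 0.862 and 1.08 CPM in WT and at 0.803, 1.13 and 0.864 CPM in ZFmut (0.04 ± 0.22, edgeR adjusted p = 0.916). NEFH, the heavy subunit, was at 1.04, 0.792 and 0.950 CPM in WT and at 1.38, 1.17 and 0.913 CPM in ZFmut (-0.25 ± 0.23, edgeR adjusted p = 0.431). Per kilobase of exon NEFL was at 43.4 CPM in WT, far above NEFM at 0.216 and NEFH at 0.245. Neuronal markers divided too, with MAP2 and SYT1 higher and SNAP25 and ELAVL4 lower among 8 tested. Their sum was 34.9 to 38.8 CPM in WT and 25.6 to 29.5 CPM in ZFmut, DCX had 0 reads, and the part of these markers in the INA value was not tested.

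NES, the gene of nestin in neural precursors, was at 103, 129 and 117 CPM in WT and at 145, 171 and 161 CPM in ZFmut. The log2 difference was -0.45 ± 0.08 (SE, edgeR adjusted p = 0.000404), with no overlap between groups. SYNM, the gene of synemin, a large linker that joins vimentin or desmin filaments, was the other called gene on the higher side. It was at 121, 122 and 115 CPM in WT and at 102, 105 and 102 CPM in ZFmut, a small difference of 0.21 ± 0.05 (SE, edgeR adjusted p = 0.00423). SYNM shares 27.7% of its exonic bases with genes on the opposite strand, NEFM 38.9% and VIM 24.4%. BFSP1, the gene of the lens filament protein filensin, was at 4.94, 5.10 and 5.63 CPM in WT and at 4.95, 4.01 and 4.53 CPM in ZFmut, and its difference of 0.21 ± 0.11 did not pass (edgeR adjusted p = 0.165), though it passed with the GC and length correction (0.29, edgeR adjusted p = 0.0439).

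Of the lamins, LMNA was lower with WT and the B-type genes did not pass. LMNA (ENSG00000160789.19, chromosome 1, 156082573 to 156140089, plus strand), whose protein stiffens nuclei, was at 446, 484 and 467 CPM in WT and at 647, 790 and 717 CPM in ZFmut. The gap between the groups was wide, with a log2 change of -0.62 ± 0.07 (SE, edgeR adjusted p = 4.90e-06), a 1.54-fold lower level. LMNB1, a lamin of dividing cells, was at 278, 301 and 284 CPM in WT and at 309, 327 and 311 CPM in ZFmut (-0.13 ± 0.05, edgeR adjusted p = 0.061), and LMNB2, the other B-type gene, was at 824, 906 and 870 CPM in WT and at 875, 988 and 931 CPM in ZFmut (-0.10 ± 0.06, edgeR adjusted p = 0.167). LMNB1 passed in 7 of 16 alternatives, among them without ZFmut replicate 1 (-0.16, edgeR adjusted p = 0.030). LMNB2 also passed without ZFmut replicate 1 (-0.16, edgeR adjusted p = 0.033). With the correction for GC content and gene length its direction turned (0.02). With the replicate number as a block both B-type genes passed (LMNB1 edgeR adjusted p = 0.0012, LMNB2 edgeR adjusted p = 0.00676). The difference between LMNA and the B-type genes was not tested.

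Genes that anchor, process or regulate filaments were counted from lists. Over 97 genes of 4 lists, 82 were tested, 26 were higher and 14 lower, against 18.4% and 17.2% of all genes. With the GC and length correction 23 were higher and 24 lower. Over all 18683 tested genes that correction gave 3376 higher and 4424 lower, against 3442 and 3207 without it. Of 25 cytolinker and desmosome genes 19 were tested, with 9 higher, 2 lower and 8 not passing, and a median log2 difference of 0.16; with the GC and length correction 8 were higher and 6 lower. DSP, the gene of desmoplakin that ties keratin to desmosomes, was higher at 670 ± 11.3 against 322 ± 5.16 CPM (1.06 ± 0.05, SE, edgeR adjusted p = 9.99e-10). PKP3, a plakophilin of desmosomes, was higher at 20.2 ± 2.23 against 8.80 ± 1.30 CPM, EPPK1, the gene of the keratin linker epiplakin, at 28.4 ± 2.66 against 13.2 ± 0.776 CPM, and PERP, a desmosomal membrane protein, at 276 ± 14.1 against 203 ± 9.11 CPM. The lower genes were PPL, the gene of periplakin, at 3.37 ± 0.347 against 8.78 ± 1.22 CPM, and ITGB4, the hemidesmosome integrin that binds keratin through plectin, at 6.59 ± 0.978 against 15.5 ± 1.68 CPM.

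**Figure D4:**
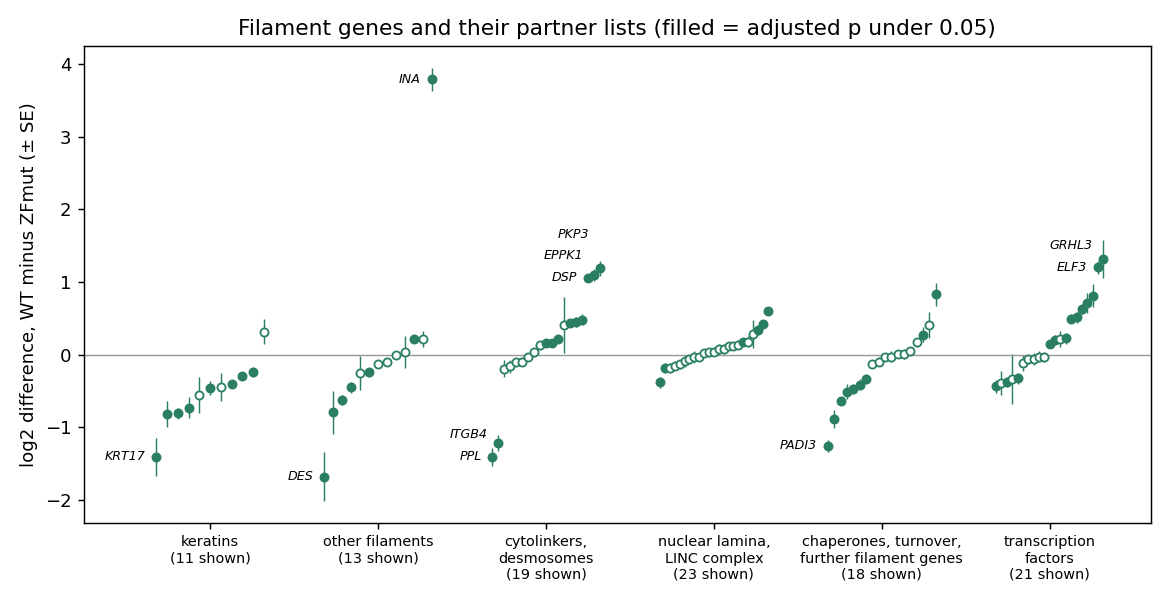
Log2 difference (WT minus ZFmut) of tested genes of the 4 partner lists (vertical axis), with the tested keratins and other filaments at the left, bars for the standard error and filled points for adjusted p under 0.05. Medians are 0.16 for cytolinkers and desmosomes, 0.04 for the nuclear lamina, -0.06 for chaperones and turnover and 0.18 for transcription factors, and the cytolinker list holds points past 1 in both directions, from PPL at -1.40 to PKP3 at 1.19.

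Of 24 genes of the nuclear lamina and the complex that links it to the cytoskeleton, 23 were tested, 4 were higher, 2 lower and 17 did not pass. TOR1AIP1, which binds lamins at the inner nuclear membrane, was higher at 110 ± 5.10 against 72.4 ± 0.358 CPM (0.60 ± 0.05, SE, edgeR adjusted p = 5.68e-07). SYNE2, the gene of a nesprin, was higher by 0.42 ± 0.06, and by 0.26 with the correction for GC content and gene length. ZMPSTE24, the protease that matures lamin A, was higher at 69.4 ± 4.62 against 54.8 ± 3.71 CPM (0.34 ± 0.06, SE, edgeR adjusted p = 0.000834), in the direction opposite to LMNA, and by 0.18 with that correction. SYNE3, another nesprin gene, was lower at 13.7 ± 0.739 against 17.9 ± 0.0687 CPM. LEMD3 (0.17 ± 0.05, edgeR adjusted p = 0.0169) and LEMD2 (-0.19 ± 0.06, edgeR adjusted p = 0.0353), inner nuclear membrane genes, were called by small margins. LEMD3 did not pass with that correction (0.07, edgeR adjusted p = 0.189), without WT replicate 2 or 3 or without ZFmut replicate 3, and LEMD2 did not pass without WT replicate 1 or 3 or without ZFmut replicate 2 or 3. With 1 library left out, the count of higher genes in this list ran from 3 to 7 and of lower genes from 1 to 6, both highest without ZFmut replicate 1.

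Of 21 chaperone, turnover and further filament genes 18 were tested, with 2 higher and 7 lower. The lower ones included PADI3, which converts arginine to citrulline in hair and epidermal proteins, at 7.22 ± 0.669 against 17.4 ± 0.946 CPM (-1.26 ± 0.09, SE, edgeR adjusted p = 7.95e-08), and its relative PADI2 at 3.84 ± 0.339 against 7.19 ± 1.06 CPM. UCHL1, an abundant neuronal deubiquitinase, was lower at 292 ± 4.61 against 454 ± 7.95 CPM, and IFFO2, an intermediate filament family orphan, at 33.9 ± 2.21 against 47.0 ± 1.96 CPM. TCHH, the gene of trichohyalin of the inner root sheath, was higher at 3.48 ± 0.606 against 1.91 ± 0.104 CPM. FAM83H, which organises keratin filaments, was called at 0.28 ± 0.10 (edgeR adjusted p = 0.0388) with overlapping groups, and did not pass without WT replicate 2 or 3 or without ZFmut replicate 1 or 2 (edgeR adjusted p = 0.116 to 0.159). It was 0.42 with the correction for GC content and gene length.

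Of 27 transcription factors of keratin and epithelial genes 22 were tested, with 11 higher and 3 lower and a median of 0.18. With the GC and length correction 8 were higher and 5 lower. Over all tested genes the lower ones rose from 3207 to 4424 with that correction. ELF3, an epithelial factor of the ETS family, was higher at 34.4 ± 1.38 against 14.9 ± 1.95 CPM, KLF4, a factor of skin barrier formation, at 35.2 ± 1.97 against 22.7 ± 0.949 CPM, and SNAI2, a repressor of epithelial genes, at 44.7 ± 1.19 against 31.9 ± 1.95 CPM. The lower genes were JUN at 206 ± 17.6 against 266 ± 19.6 CPM and JUNB at 76.9 ± 7.82 against 96.3 ± 7.35 CPM, subunits of AP-1, and CEBPB, a leucine zipper factor, at 62.1 ± 8.02 against 84.1 ± 10.2 CPM. JUNB was -0.32 and, with the correction for GC content and gene length, -0.20. TP63, the master factor of stratified epithelia, had 66 reads and was not tested, and GRHL2 had 7 reads.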

How the data were processed

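RNA of 3 WT and 3 ZFmut libraries of Daoy cells was measured by sequencing, with groups and numbers as in the sample titles. The authors deposited unnormalised read counts for each gene, in whole numbers, in 1 file per library. The genome was GRCh38 and the tools included TopHat2 2.0.9, HTSeq, cutadapt and DESeq2, per the submitters' processing notes; which annotation release and strand setting HTSeq had is not given in the sources used here. Summary lines that name no gene entered neither library sizes nor tests: 7.71 to 8.08% of the total was ambiguous between genes, 5.04 to 6.56% lay outside genes and 16.1 to 19.4% aligned to several places.

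Names, positions and exon lengths came from GENCODE release 29, which held 94.1% of the identifiers. Tests ran in R 4.3.3 with edgeR 4.0.16 (TMM, filterByExpr, two-sided quasi-likelihood F test, no covariates) over all genes, with Benjamini-Hochberg adjustment over the 18683 that passed the filter. Log2 differences are WT minus ZFmut. CPM uses TMM library sizes, and levels per length divide it by the union of exons in kilobases. No pair of libraries of a group agreed within sampling noise in a chi-square test (3.16 to 7.17 per degree of freedom), so all 6 were kept. The biological coefficient of variation was 6.27%. Windows around transcript starts came from RefSeq. The scripts were tested on simulated data.

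The genes and lists were chosen with earlier results of these data known. By rule, the text names each called filament gene with its values, the other tested ones, untested ones with at least 10 reads, up to 4 called genes per partner list and direction with the smallest p, and the nearest tested neighbours of genes changed at least 2-fold. A gene that this rule takes is not reported here and not plotted; counts and medians of lists include it. Genes with 0 reads, markers and pseudogenes were named beyond that rule after their values were seen. Alternatives were median-of-ratios and upper-quartile scaling, DESeq2 1.42.0, limma-voom (limma 3.58.1), no low-count filter, a filter of 5 CPM in 3 libraries, the replicate number as a block, a correction for GC content and gene length (loess span 0.5) with and without the block, libraries thinned to the smallest total, and each library left out in turn.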

Additional observations from a re-analysis of the deposited data

How the results depend on the processing

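Each result was recomputed under 16 alternatives. Of 375 values of single filament genes, 341 kept direction and side of the threshold, 11 lost the call, 12 gained it and 11 changed sign. The sign changes were those of genes near 0 that passed in none of those settings: LMNB2 with the GC and length correction (0.023) and with the block added (0.023), NEFM with 1 library left out (-0.057 to 0.14), and VIM with limma-voom (0.0018), the filter of 5 CPM (0.0038), the replicate block (0.00083) or 1 library left out (-0.037 to 0.031). Filament genes called lower numbered 9 to 15 and higher 2 to 3 over the alternatives, keratins 6 to 8 and 0. With the GC and length correction all lower filament genes but NEFL had a smaller difference. KRT8 was at -0.74, LMNA at -0.50, NES at -0.34, KRT75 at -0.36, KRT80 at -0.31 and KRT81 at -0.61. NEFL was at -0.27, and GFAP did not pass (-0.73, edgeR adjusted p = 0.0572).

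Partner genes called lower numbered 24 with the GC and length correction and 25 with the block added, against 14. Lower cytolinker genes numbered 4 with the replicate block, 6 with the correction and 6 with both, against 2, and lower transcription factors 5 and 5 with the correction without and with the block, against 3. In the lamina list, higher genes numbered 8 with the block and 3 to 7 with 1 library left out, against 4; lower genes numbered 5 with the block, 4 with the block and correction and 1 to 6 with 1 library left out, against 2. Higher chaperone and turnover genes numbered 1 with limma-voom, with the filter of 5 CPM and with thinning, 4 with the block, 5 with the block and correction and 1 to 3 with 1 library left out, against 2. Over all tested genes, higher and lower genes numbered 4466 and 4226 with the block, against 3442 and 3207. They numbered 3376 and 4424 with the correction, and 3530 and 4677 with the block and correction. With 1 library left out fewer samples enter the test, and the cause of the other shifts was not tested.

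Same-numbered WT and ZFmut libraries deviated together with correlations of 0.164, 0.077 and 0.064, not all above 0.1, so the numbers were not taken as pairs; every WT library correlated best with its own number, a hint from the data. The replicate block gave 15 lower and 2 higher filament genes, with LMNB1 (edgeR adjusted p = 0.0012) and LMNB2 (edgeR adjusted p = 0.00676) added to the lower ones. Genes under about 1 CPM (INA in ZFmut, KRT17, DES, GFAP, KRT19, NEFM) rest on few reads and are limited by depth.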
